A study of Mus musculus with 16 samples.

Results

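The lung of mice that lack T1α was compared between embryonic day 18.5 (E18.5) and term, to describe which genes and functions rose and fell from late gestation to just after birth. Samples were chosen by their titles: 5 lungs homozygous for the targeted T1α allele at E18.5 (arrays A to E) and 3 homozygous lungs at term (arrays F to H), which makes 8 of the 16 arrays in the series. The other 8 arrays hold T1α(+/+) lungs, 5 at E18.5 (I to M) and 3 at term (N to P), and are used below only for comparison. Each array holds total RNA of 1 whole lung on an oligonucleotide array of 12488 probe sets, 66 of them control probe sets. All pups came from matings of heterozygous mice, and term pups were taken soon after a normal delivery. The targeted allele removes promoter sequence of the gene in every cell of the body from conception on, so the null lung is not a model of loss in type I cells alone. Strain, litter and sex are not given in the labels.

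In the last days of gestation the mouse lung passes from a branched, cell-dense organ to thin-walled sacs, a step called sacculation. The wall of these sacs is lined by type I cells, broad and flat, across which gas is exchanged, and by type II cells, which make surfactant. At birth the airspaces fill with air, lung liquid is absorbed, oxygen tension rises and stress hormones surge. T1α, also called podoplanin and encoded by Pdpn, is a small mucin-like glycoprotein of the type I cell surface, and mice without it form poorly expanded sacs and die at birth. Whole lung RNA mixes all these cells, so fewer cells of a type and less RNA per cell cannot be told apart in any result below.

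Pdpn, the targeted gene, was checked first. In null lungs at E18.5 its signals were 1.4, 16.5, 19.8, 21.2 and 8.6, and those of the term null lungs were 9.0, 8.6 and 30.0, all under the filter on low signals. The same probe set gave 60.2 to 135.5 in the 5 earlier T1α(+/+) lungs and 39.7 to 214.9 in the later ones, so no null array reached the lowest wild-type array.

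A change is given as the log2 fold change, term minus E18.5, on the log2(signal + 16) scale, with its standard error (SE) and the Benjamini-Hochberg adjusted p of limma over all probe sets tested, and a probe set was called at an adjusted p under 0.05. Of 6145 probe sets above the filter on low signals, 1654 were called (26.9%), 851 higher at term (13.8%) and 803 lower (13.1%). At an unadjusted p under 0.05 there were 2499 (40.7%). The signals of the 3 term arrays and the 5 E18.5 arrays did not overlap for 1890 of the tested probe sets (30.8%). These shares are the background against which each gene group is read. When every array was centred on its median, which moved the median change of all probe sets by 0.11, the split became 1034 higher and 517 lower. Without term array F, with 2 term arrays left, 504 were higher and 389 lower, and without array G 597 and 504. Calls named below were also made without each array in turn unless an array is named. That covers arrays left out and not other tests. Under the study's t-test on unlogged signals Fos (adjusted p = 0.0951), Nr4a1 (0.069), Junb (0.0812) and Jun (0.0879) were not called. Nor were Hspa1a, Alas2 and Lgmn, among others, whereas Dusp1 and Ccn1 were called. The labels do not say whether lungs of a group came from separate litters, so p-values measure only the spread between these lungs. A gene with several probe sets is given by the one with the highest mean signal unless it is named for the size of its change. For some genes the value of another probe set is given beside it. Where none is given, agreement of the other probe sets is not implied. Some called genes passed the filter at 1 age only, and the size of their change depends on the number added before the log. Among those named, the dim age was E18.5 for Nr4a1, Ccn1, Klf2, Jag2, Adm, Arntl, Chpt1, Clcn3, E2f5, Fgfr4, Hspa1a, Plaur, Psme4, Rbp4, Sox2, Tgfb1, Dnajb9, Arih1, Car8 and Zranb2. It was term for Tk1, Mcm5, Mcm2, Mcm7, Uhrf1, Top2a, Birc5, Kif11, Kif2c, Angptl4, Elane, Elovl1, Gja5, Dnaaf5, Dctpp1, Klhdc4, Mobp, Krt20 and Snrp1c-ps2.

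The brightest probe sets read lower on every term array, in both genotypes. In null lungs the highest signal of an E18.5 array was 15727 to 29524 and that of a term array 6159 to 10576. The T1α(+/+) arrays gave 12979 to 29159 early and 6318 to 7449 late. Among the 113 tested probe sets with a mean signal over 2000, 58 were called lower and 4 higher, with a median log2 change of -0.78. After quantile normalization, which gives every array the same distribution, the counts were 21 and 12 and the median -0.08. The part of the scanner or of the labelling in this was not tested, so both values are given for genes named below whose mean signal was over 2000. Array F, and to a lesser degree E and C, carried more heart RNA: the summed signal of 6 heart markers was 10028, 5707 and 3006 on these, and 789 to 1302 on the other null arrays. Array G had the lowest sum of 5 macrophage markers, 248 against 502 to 735 on the other null arrays. The GAPDH 3' to 5' ratio, a sign of RNA integrity, was 0.972 to 1.723 at E18.5 and 1.106, 2.633 and 0.827 at term. Array B at E18.5 and array G at term had the highest Xist signals of their groups, 99.8 and 75.8, and sex is not in the labels. Eif2s3y, a gene of the Y chromosome, read 2.9, 6.3, 2.1, 33.4 and 17.6 on arrays A to E. On F, G and H it read 45.5, 6.5 and 58.9, so sex may be partly confounded with age in these lungs. In T1α(+/+) lungs it read 4.7 to 49.6 at E18.5 and 43.9 to 54.2 at term. Adding Xist to the fit gave 829 higher and 788 lower calls, and adding the GAPDH ratio 846 and 810. The part of heart or macrophage RNA in the results was not tested.

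**Figure D1:**
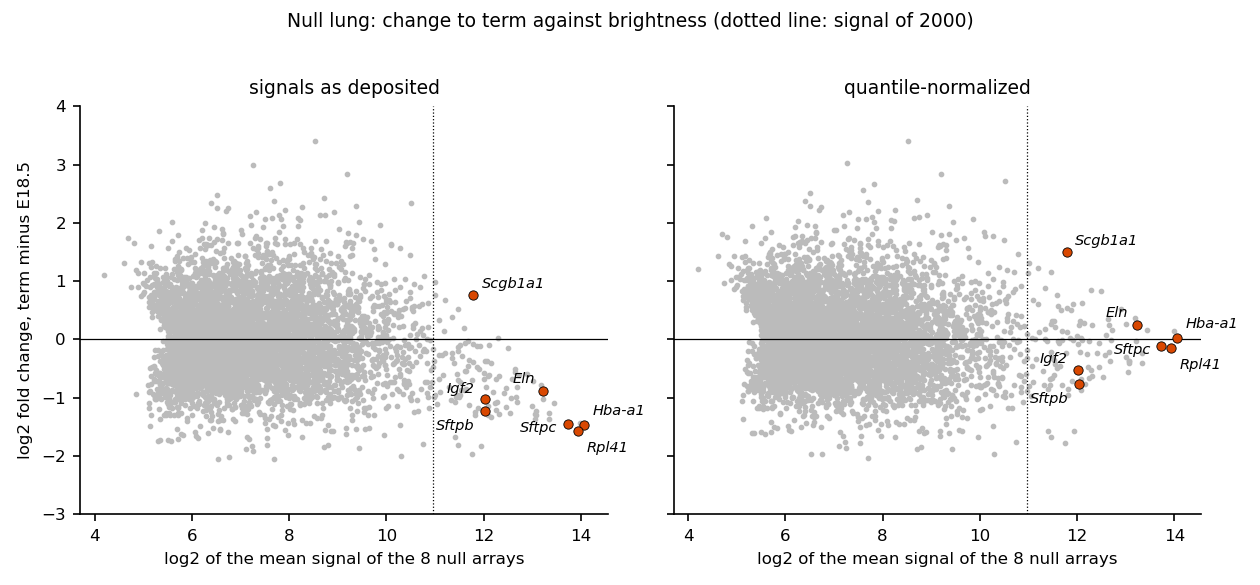
Log2 fold change of each tested probe set in the null lung (vertical axis, term minus E18.5) against the log2 mean signal of the 8 arrays, for signals as deposited (left) and after quantile normalization (right). Right of the dotted line at a signal of 2000 the cloud bends downward on the left, where its median is -0.78, and lies near 0 on the right, at -0.08. The 7 orange points are genes named in the text.

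The promoters of a few genes that carry the main results are shown first, since these genes moved in groups. Immediate early genes are switched on within minutes by signals that pass through factors such as CREB, which binds the cyclic AMP response element TGACGTCA. Cell cycle genes are held by E2F factors, at sites such as TTTGGCGC or TTTCGCGC, and by the DREAM complex at the element TTTGAA, often near a CCAAT box. The 250 bases before the start of each gene in the RefSeq table for GRCm38.p6 were searched on both strands. Dusp1, a phosphatase that turns off MAP kinases, rose. Mcm5, a subunit of the replicative helicase, Cdc20, an activator of the anaphase-promoting complex, and Top2a, the topoisomerase that untangles replicated DNA, fell. Capitals mark the TGACGTCA element in Dusp1, the E2F site and CCAAT boxes in Mcm5, and the TTTGAA element and CCAAT boxes, read on either strand, in Cdc20 and Top2a. Other matches stand in lower case: the Mcm5 window also holds TGACGTCA, and the Dusp1 window TTTGAA on the other strand.
Dusp1, chr17:26508473-26508722, minus strand: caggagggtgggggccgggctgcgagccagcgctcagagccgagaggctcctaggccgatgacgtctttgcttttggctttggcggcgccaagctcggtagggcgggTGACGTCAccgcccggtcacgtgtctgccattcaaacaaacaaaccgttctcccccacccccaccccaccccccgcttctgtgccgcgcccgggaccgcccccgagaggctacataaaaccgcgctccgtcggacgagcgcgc
Mcm5, chr8:75109259-75109508, plus strand: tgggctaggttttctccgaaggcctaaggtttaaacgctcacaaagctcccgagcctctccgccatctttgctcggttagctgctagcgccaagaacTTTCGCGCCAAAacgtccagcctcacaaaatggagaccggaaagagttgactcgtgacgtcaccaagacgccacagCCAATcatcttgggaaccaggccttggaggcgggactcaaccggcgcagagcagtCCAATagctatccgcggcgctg
Cdc20, chr4:118437344-118437593, minus strand: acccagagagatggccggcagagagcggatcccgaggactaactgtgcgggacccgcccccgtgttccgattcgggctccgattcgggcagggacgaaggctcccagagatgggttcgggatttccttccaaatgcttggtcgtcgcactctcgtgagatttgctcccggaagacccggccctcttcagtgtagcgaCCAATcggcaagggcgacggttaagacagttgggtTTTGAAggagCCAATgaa
Top2a, chr11:99024190-99024439, minus strand: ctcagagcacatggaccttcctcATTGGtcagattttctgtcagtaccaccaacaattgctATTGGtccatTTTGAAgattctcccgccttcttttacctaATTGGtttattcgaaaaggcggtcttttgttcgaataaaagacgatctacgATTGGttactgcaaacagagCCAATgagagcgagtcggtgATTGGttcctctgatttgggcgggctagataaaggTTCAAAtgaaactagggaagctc
In Mcm5 the pair of E2F matches overlap, starting 153 and 149 bases before the gene start. In Dusp1 the element begins 143 bases before the start, and in Cdc20 TTTGAA begins 18 bases before it with CCAAT boxes 53 and 8 bases before it. Top2a held 6 CCAAT boxes and 2 TTTGAA elements.

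Of the 31 replication and mitosis genes that fell, 28 had a window in the table. TTTGAA was in 12 of these (42.9%, against 18.3% of all 27025 genes), a CCAAT box in 19 (67.9% against 37.5%) and an E2F site in 3 (10.7% against 0.759%), namely Mcm5, Dnmt1 and Uhrf1. Dnmt1 was not called without array F. Of the 20 immediate early genes that rose, 18 had a window, and TGACGTCA was in those of Dusp1 and Maff (11.1% against 1.77%). Maff was not called without array F. TGACGTCA was also in 1 of the 28 cell cycle genes (3.57%), Mcm5, while TTTGAA was in 2 of the 18 immediate early genes (11.1%) and a CCAAT box in 8 (44.4%). The CArG box, the core of the serum response element, was in none of them and in 1.62% of all genes, which says only that these letters are not in this window. The letters are a description of the sequence and no measure of binding.

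Immediate early genes made up the steepest rise. They encode short-lived transcription factors and feedback proteins that cells switch on within minutes of growth signals, stretch or stress. Of 28 members tested, 20 rose, 1 fell and 7 were not called. The median change of the list was 1.05, also 1.05 after quantile normalization, against -0.06 over all probe sets, and 17 to 20 members rose when any 1 array was left out.

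Fos, a subunit of the AP-1 transcription factor, had the largest change of any named gene. Its signals at E18.5 were 27.5, 58.1, 45.5, 81.3 and 71.4, and at term 328, 1637 and 712, so every term array was above every earlier one, with array F lowest among the 3. The log2 fold change was 3.41 (SE 0.41, adjusted p = 0.000321). Junb and Jun, other AP-1 subunits, rose by 2.23 (SE 0.37) and 1.36 (SE 0.28) log2 units, while Jund, the AP-1 subunit that is made at a steady level, fell by 0.69 (SE 0.22, adjusted p = 0.0341). That fall was not called without array A, C, F or H, nor after quantile normalization (-0.32, adjusted p = 0.263). Atf3, a stress-induced factor of the same family, rose by 2.68 (SE 0.29) on a probe set whose probes are shared with related sequences. On another probe set Atf3 rose by 1.40 (SE 0.40, adjusted p = 0.0222). Probe sets of the shared kind were also read for Gja1, Hif1a, Actg2, H2-K1, Zranb2 and Tuba1c, among others named below.

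Dusp1 read 105, 108, 186, 231 and 233 at E18.5, against 1294, 1494 and 1048 at term, a change of 2.84 (SE 0.28, adjusted p = 0.000144). Nr4a1, an orphan nuclear receptor of the immediate early class, read 3.4 to 36.0 at E18.5 and 134, 355 and 605 at term (2.99, SE 0.42, adjusted p = 0.000737), with all E18.5 arrays under the filter. The size ranged from 2.07 with 64 added to 3.85 with nothing added. Ccn1, the matricellular protein CYR61, had the lowest adjusted p of the group. It read 16.8 to 28.6 at E18.5 and 145, 232 and 235 at term (2.47, SE 0.22, adjusted p = 8.85e-05). Its relative Ccn2, known as CTGF, rose by 1.03 (SE 0.34, adjusted p = 0.0394), with term signals of 440, 270 and 126 that overlapped the E18.5 range of 67.9 to 170. The Ccn2 call was lost without any of arrays A, B, D, E, F and G.

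Feedback regulators moved with the transcription factors. Zfp36l1, which speeds decay of messenger RNAs, rose by 2.02 (SE 0.24), Btg1, an antiproliferative gene, by 1.95 (SE 0.25), Ier2 by 1.80 (SE 0.25) and Socs3, an inhibitor of cytokine signaling, by 1.05 (SE 0.21). The Krüppel-like factors Klf2 and Klf4 rose by 1.66 (SE 0.27) and 1.17 (SE 0.25). Klf2, a flow-responsive factor of endothelium, had term signals of 44.1, 72.8 and 66.0 against 4.7 to 13.0 before, where it was under the filter. Its size ranged from 0.79 with 64 added to 2.94 with nothing added. Not every member of the class moved. Egr1, a zinc finger factor that usually rises beside Fos, read 16.5 to 96.3 at E18.5 and 30.9, 117 and 43.5 at term, and its change of 0.17 (SE 0.39, adjusted p = 0.779) was not called. Changes of -0.03 for Btg2, 0.34 for Fosb and 0.46 for Zfp36 were also not called.

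**Figure D2:**
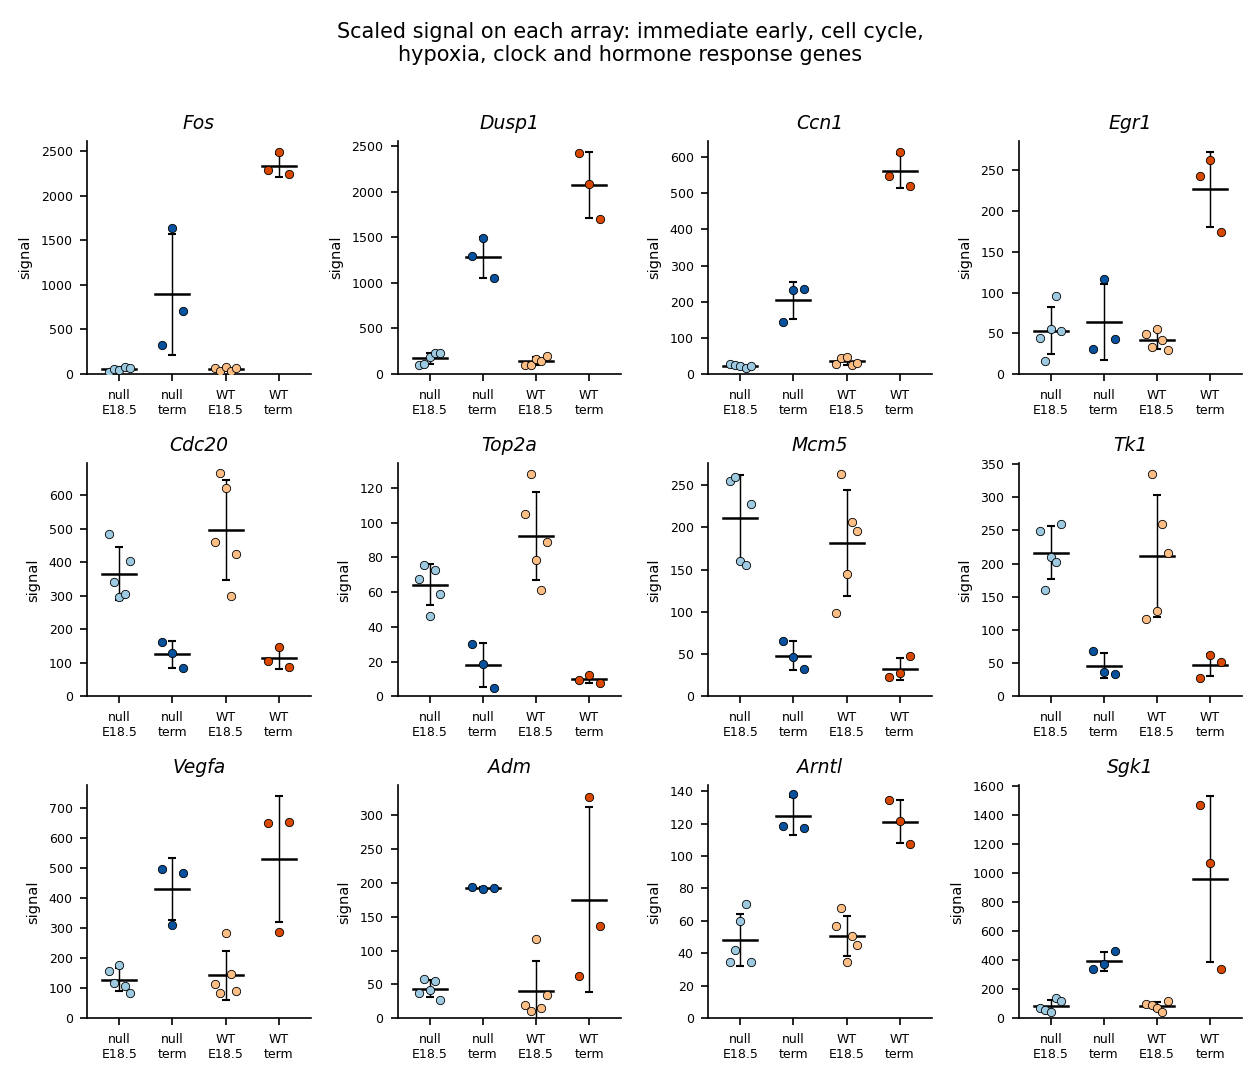
Scaled signal (vertical axis, linear, arbitrary units) of 12 genes on each of the 16 arrays, by genotype (WT, wild type) and age, with 5 arrays at E18.5 and 3 at term. Points are arrays, the horizontal bar is the mean and the whiskers its standard deviation. In null lungs Fos, Dusp1, Ccn1, Vegfa, Adm, Arntl and Sgk1 were higher on all 3 term arrays than on any E18.5 array, Cdc20, Top2a, Mcm5 and Tk1 were lower, and Egr1 overlapped.

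The machinery of cell division fell. On the DNA replication list 15 of 24 tested members fell and none was called higher, with a median of -0.66. On the mitosis and chromosome segregation list 16 of 28 fell and 1, Smc4, a condensin subunit, rose (0.87, SE 0.21, a call lost without array F), with a median of -0.87. With the arrays centred on their medians 10 and 14 fell. Without term array F, G or H, 6, 7 or 9 replication genes and 14, 12 or 12 mitosis genes were called lower, while the medians stayed between -0.65 and -0.72 and between -0.79 and -0.96.

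Tk1 and Mcm5 were among the replication genes that fell. Tk1, thymidine kinase of S phase, read 249, 161, 209, 202 and 260 at E18.5, against 67.8, 36.7 and 34.1 at term (-1.92, SE 0.23, adjusted p = 0.000312). Mcm5 read 155 to 260 at E18.5 and 65.9, 46.9 and 31.7 at term (-1.83, SE 0.24, adjusted p = 0.000561). In both, every term array lay below every E18.5 array. Uhrf1, which carries DNA methylation through replication, fell by 1.66 (SE 0.27; 2.40 with nothing added before the log, where Tk1 fell by 2.28) and Lig1, the ligase that joins Okazaki fragments, fell by 1.2 (SE 0.19). Other helicase subunits fell less, Mcm7 by 1.13 (SE 0.27, lost without array G) and Mcm2 by 0.72 (SE 0.21, lost without F, G or H). Pcna, the sliding clamp of the polymerase, changed by -0.26 (SE 0.29, adjusted p = 0.53) and was not called.

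Among mitotic genes, Cdc20 read 484, 341, 295, 304 and 403 at E18.5, against 161, 130 and 83.3 at term (-1.46, SE 0.24, adjusted p = 0.00158). Top2a went from 46.4 to 75.7 at E18.5 to 30.2, 18.4 and 4.8 at term (-1.31, SE 0.28, adjusted p = 0.0054). Birc5, the survivin subunit of the chromosomal passenger complex, fell by 1.58 (SE 0.25), Ccnb2, a mitotic cyclin, fell by 1.48 (SE 0.26), and the kinesins Kif2c and Kif11 fell by 1.40 (SE 0.24) and 1.30 (SE 0.23). Plk1, a mitotic kinase, fell by 0.95 (SE 0.22), with -0.97 (adjusted p = 0.0108) and 0.32 (adjusted p = 0.395) on its other probe sets. The proliferation marker Mki67 changed by -0.76 (SE 0.31, adjusted p = 0.0858) and Cdk1 by -0.67 (SE 0.24, adjusted p = 0.0515), neither of them called.

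Regulators of the G1 phase moved both ways, with 4 of 17 higher and 2 lower. Ccne1, cyclin E, and Cdk4, the partner of the D cyclins, fell by 1.22 (SE 0.21) and 1.09 (SE 0.20). Mdm2, the p53 ubiquitin ligase and itself a p53 target, rose by 1.42 (SE 0.22), Ccng2, a cyclin of resting cells, by 1.27 (SE 0.23), and E2f5, a repressive E2F factor, by 1.16 (SE 0.21). The remaining rise was that of Cdkn2b, a CDK inhibitor, a call lost without array F or G. Other CDK inhibitors, Cdkn1a (p21) and Cdkn1c (p57), changed by 0.13 (SE 0.28, adjusted p = 0.752) and 0.56 (SE 0.22, adjusted p = 0.0785), neither called. The authors reported p21 as not detected on these arrays, and detection calls were not used here.

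Part of the response to low oxygen rose. On the combined list of glycolysis and hypoxia response, 11 of 28 members rose and 1, Pfkm, the muscle type of phosphofructokinase, fell (-0.71, SE 0.20, lost without F or G). The median of the whole list was 0.15. Without array F, 6 members were higher. Adm, adrenomedullin, a vasodilator peptide, read 27.7 to 57.4 at E18.5 and 194, 191 and 193 at term (1.83, SE 0.21, adjusted p = 0.000312). Vegfa, the endothelial growth factor made by distal epithelium, read 85.4 to 176 at E18.5 and 494, 310 and 482 at term (1.63, SE 0.25, adjusted p = 0.00109). Ddit4, an inhibitor of mTOR signaling, rose by 2.19 (SE 0.40), Bnip3, a mitophagy receptor, by 0.92 (SE 0.22), and Hif1a, the oxygen-regulated transcription factor itself, by 0.94 (SE 0.22). The changes of Ldha (-0.65), Aldoa (-0.43), Tpi1 (-0.26), Slc2a1 (0.10) and Pgk1 (0.21), classical targets in glucose uptake and glycolysis, were not called.

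Some hormone and clock genes rose as well. On the glucocorticoid response list 7 of 25 rose and 2 fell, with a median of 0.56. Dusp1 belongs to that list too. Sgk1, a kinase that keeps epithelial sodium channels at the surface, read 45.6 to 140 at E18.5 and 340, 375 and 464 at term (2.08, SE 0.29, adjusted p = 0.000728). Errfi1, a feedback inhibitor of the EGF receptor, rose by 1.56 (SE 0.23), and the factors Cebpd and Cebpb rose by 1.45 (SE 0.24) and 0.84 (SE 0.20). Other classical targets were not called, among them Fkbp5 (0.09), Klf9 (0.11) and Per1 (0.54). Glul, glutamine synthetase, fell by 0.82 (SE 0.21, lost without array H), but another of its probe sets gave 0.76 (adjusted p = 0.174). Angptl4, an inhibitor of lipoprotein lipase, fell by 1.18 (SE 0.29, lost without array G), with 0.19 and -0.34 on other probe sets, neither called.

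Of 13 clock genes tested, 4 rose and 1 fell, and without array F or H 2 rose. After quantile normalization 7 of 14 rose, and 6 with arrays centred. Arntl, which encodes the core activator BMAL1, read 34.6, 42.3, 59.9, 70.4 and 34.6 at E18.5, against 118, 138 and 117 at term (1.16, SE 0.23, adjusted p = 0.00384). Cry1, a core repressor, rose by 0.76 (SE 0.18). Bhlhe40, another repressor and a member of the hypoxia list too, rose by 1.11 (SE 0.29, lost without F or H). The time of day at which lungs were taken is not given in the sources used here, so age and hour cannot be told apart for these genes.

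**Figure D3:**
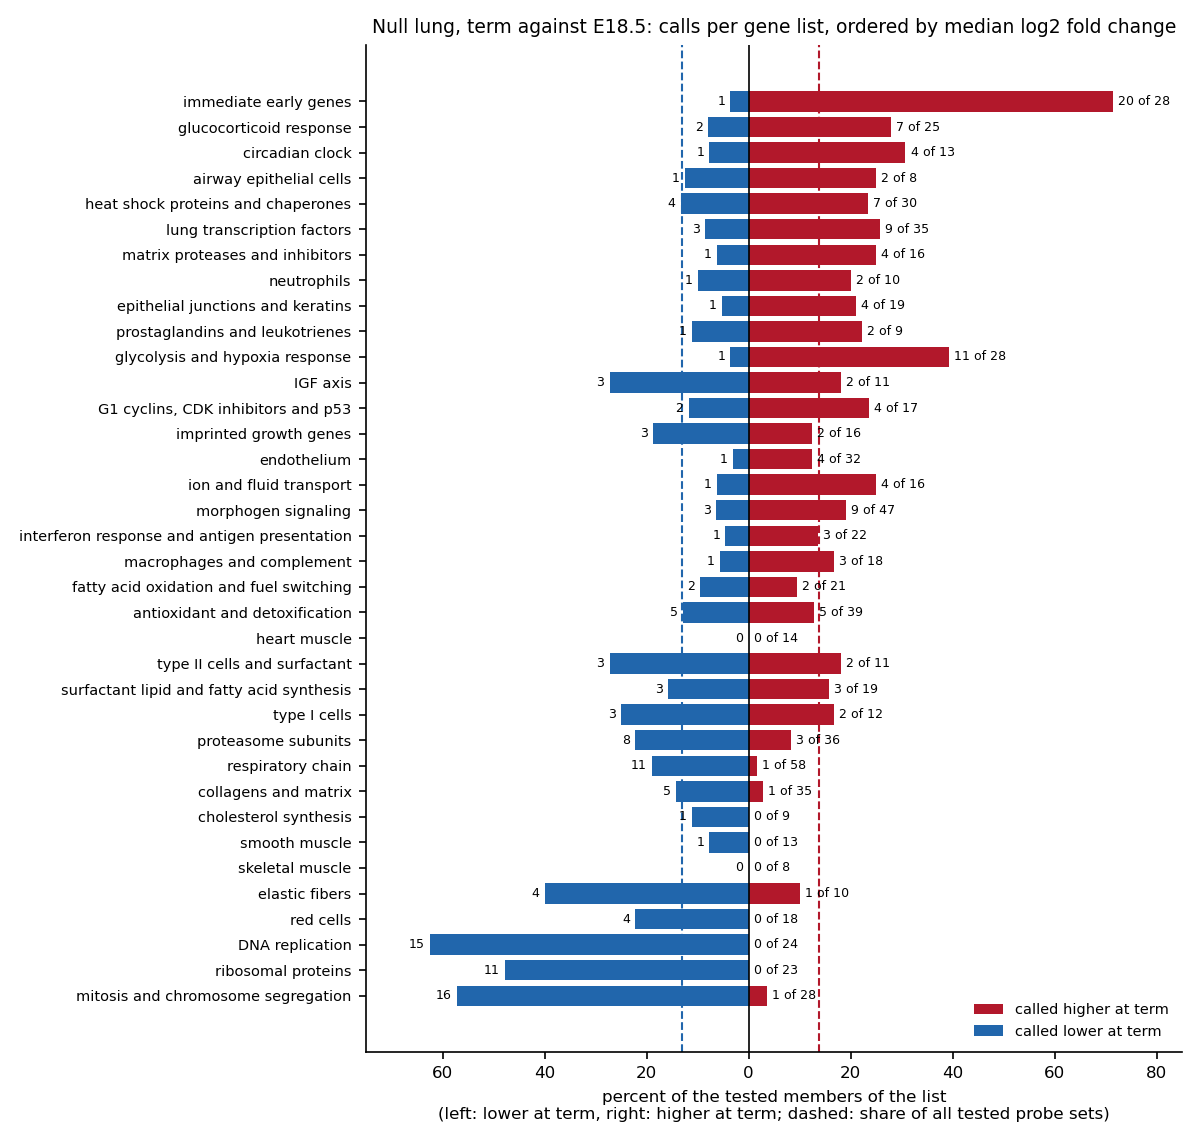
Share of tested members called higher (right, red) and lower (left, blue) at term for each gene list with at least 8 tested members, ordered from the highest to the lowest median log2 fold change. Numbers give the counts and dashed lines the shares over all tested probe sets, 13.8% higher and 13.1% lower. The immediate early list stands far to the right, with 20 of 28, and the DNA replication (15 of 24) and mitosis (16 of 28) lists far to the left.

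Surfactant proteins C and B read lower at term as deposited, and both falls were smaller after quantile normalization. Sftpc, surfactant protein C, read 23475, 12642, 23169, 13590 and 16553 at E18.5, against 6356, 7866 and 5027 at term, a fall of 1.45 log2 units as deposited (SE 0.26, adjusted p = 0.00241) but of 0.11 after quantile normalization, where it was not called (adjusted p = 0.758). Sftpb, surfactant protein B, fell by 1.23 (SE 0.23, adjusted p = 0.00307) as deposited and fell by 0.77 after quantile normalization, where it was still called (adjusted p = 0.00885). Muc1, an apical mucin, fell by 1.18 (SE 0.28). Hc, complement component C5, rose from 66.1 to 126 at E18.5 to 275, 330 and 278 at term (1.41, SE 0.21). Of 11 tested genes on the type II cell list 2 rose (1 without A, C, G or H) and 3 fell, and the median was -0.08 as deposited, 0.09 after quantile normalization and 0.02 after centring, so its sign turned with the scaling.

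Lipid genes gave mixed calls. Of 19 genes for surfactant lipid and fatty acid synthesis, 3 rose and 3 fell. These counts were near the shares over all tested probe sets, 13.8% higher and 13.1% lower. Chpt1, which joins choline to diacylglycerol, read 29.4 to 65.5 at E18.5 and 215, 148 and 146 at term (1.48, SE 0.24, adjusted p = 0.00126). Scd1, the desaturase that makes monounsaturated fatty acids, read 307 to 902 at E18.5 and 2088, 1954 and 2211 at term (1.57, SE 0.31, adjusted p = 0.00405). The fall of Pltp was lost without A, F or G, that of Acly without any array but B or E, and that of Elovl1 without any array but B. With arrays centred none fell. Fasn, fatty acid synthase, and Pcyt1a, the rate-limiting enzyme of phosphatidylcholine synthesis, changed by -0.17 and 0.25 and were not called. Fdps, farnesyl diphosphate synthase, was the 1 gene of 9 on the cholesterol list that fell (-1.53, SE 0.42, lost without array G).

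Of 12 type I cell genes in the lung that lacks T1α, 2 rose and 3 fell, and without array G none fell. Vegfa, described above, stands on that list too. Lmo7, a junction-associated scaffold, rose by 0.81 (SE 0.19). Ager, the receptor for advanced glycation end products an abundant type I cell product, read 7477, 7349, 6177, 3112 and 3146 at E18.5, against 1785, 1506 and 3412 at term, so array H lay inside the E18.5 range. Its change was -1.27 as deposited (SE 0.36, adjusted p = 0.0217, lost without A, F or G) and -0.77 after quantile normalization (adjusted p = 0.152). Hopx (-0.41, and -0.03 after quantile normalization), Emp2 (-0.39) and Cav1 (0.45) were not called. Another Cav1 probe set gave -0.62, also not called.

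Of 8 airway genes 2 rose and 1 fell, with a median of 0.51, and none was called without array F or G. Scgb1a1, the secretoglobin of club cells, read 2403 to 3139 at E18.5 and 4588, 5490 and 4239 at term, a rise of 0.77 as deposited (SE 0.20, adjusted p = 0.0146, lost without F or G) and of 1.51 after quantile normalization. Cyp2f2, another club cell gene, fell by 1.01 (SE 0.27, also lost without F or G). Of 19 junction and keratin genes 4 rose and 1 fell. Gja1, a gap junction connexin, read 586 to 724 at E18.5 and 1575, 1464 and 1748 at term (1.29, SE 0.19, adjusted p = 0.000989). Cldn4 and Cldn3, claudins of tight junctions, rose by 1.44 (SE 0.26) and 1.05 (SE 0.24), and Dsp, desmoplakin, by 1.19 (SE 0.27). Cdh1, E-cadherin, changed by -0.47 and Epcam by 0.51, neither called. Krt4 read 1049 and 1916 on arrays D and E and 109 to 202 on the other null arrays, and its change of -1.57 was not called.

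Of 16 genes for ion and fluid transport 4 rose and 1 fell. Beside Sgk1 they were Clcn3, a chloride-proton exchanger (1.11, SE 0.29), Atp1b1, the beta subunit of the sodium pump (0.65, SE 0.20), and Slc12a2, the chloride importer that drives fetal liquid secretion (1.25, SE 0.40). Clcn3 and Atp1b1 were not called without F or H, and Slc12a2 not without A, B, C, F, G or H. Without array F or H, 1 of the 4 was called higher. Prss8, a protease that activates sodium channels, fell by 1.02 (SE 0.34), a call lost without any of A, C, D, E, F and G. Its other probe set gave 0.16 (adjusted p = 0.742).

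**Figure D4:**
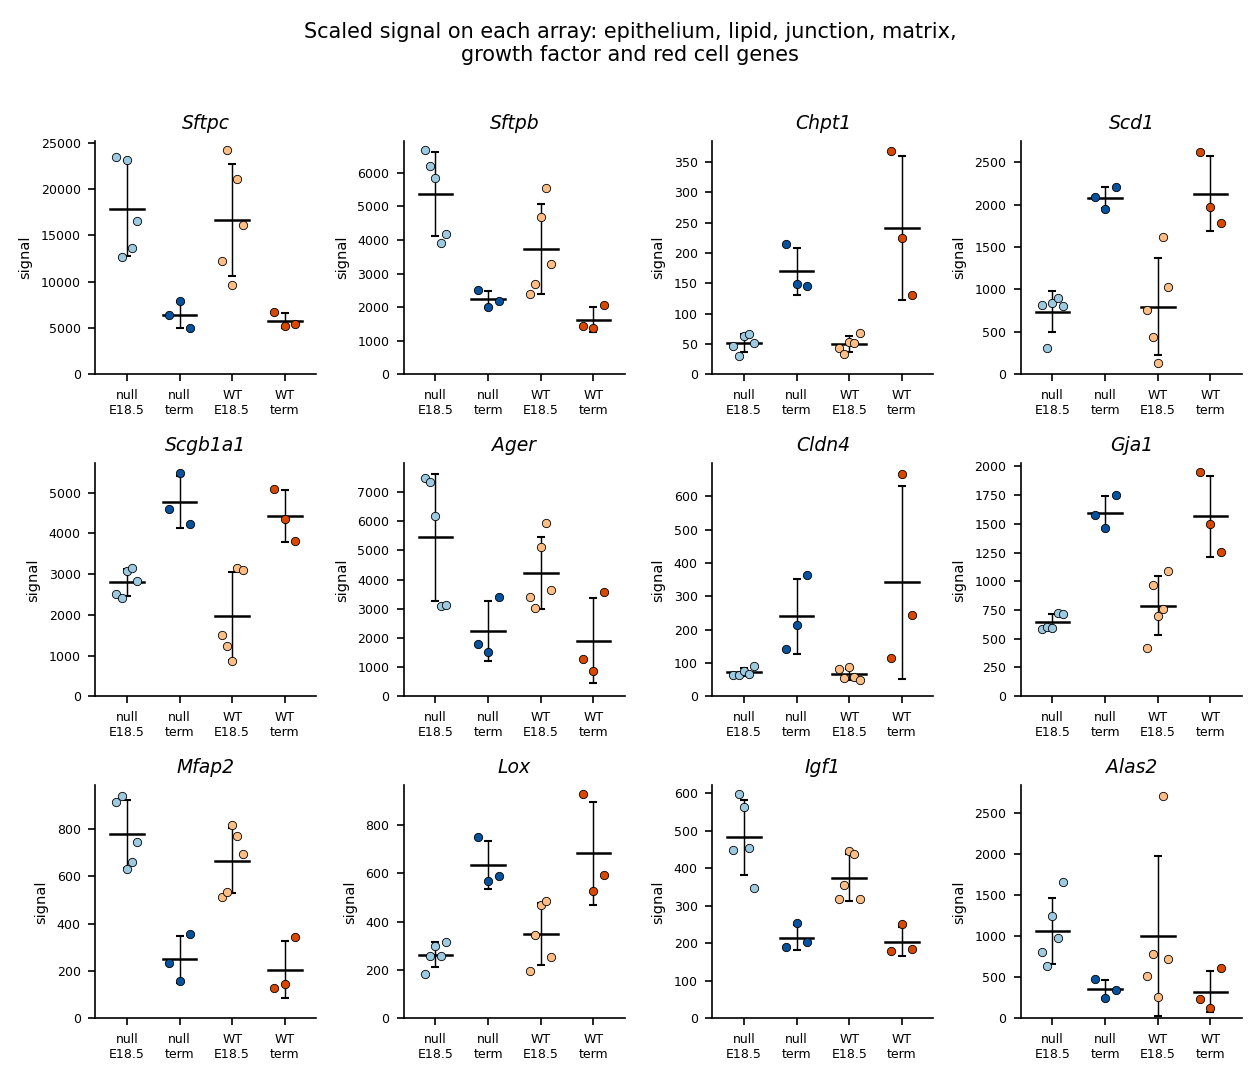
Scaled signal (vertical axis, linear, arbitrary units) of 12 tissue genes on each array, by genotype (WT, wild type) and age, with the mean (bar) and standard deviation (whiskers) of 5 arrays at E18.5 and 3 at term. In null lungs Chpt1, Scd1, Scgb1a1, Cldn4, Gja1 and Lox were higher on every term array, Sftpc, Sftpb, Mfap2, Igf1 and Alas2 were lower, and Ager overlapped.

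On the list of lung transcription factors 9 of 35 rose and 3 fell, and without array G 5 rose and 1 fell. Sox2, a factor of the proximal airway, read 16.4 to 53.8 at E18.5 and 117, 126 and 87.7 at term (1.35, SE 0.27, adjusted p = 0.00401). Foxa1 and Foxa2, forkhead factors that drive surfactant and secretory genes, rose by 0.80 (SE 0.20) and 1.02 (SE 0.29), the latter not without G or H. Lmo4, a LIM-only cofactor, rose by 1.32 (SE 0.21) and Sox17 by 1.16 (SE 0.24). Etv4, a factor induced by FGF10 in distal tips, fell by 0.84 (SE 0.21, lost without array F). Genes of earlier patterning, Tcf21 (-0.41), Hoxa5 (-0.30) and Gata6 (0.12), were not called.

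Among 47 morphogen genes 9 rose and 3 fell, and 6 rose without array F or G. Jag2, a Notch ligand, read 6.8 to 33.3 at E18.5 and 91.4, 148 and 76.2 at term (2.01, SE 0.30, adjusted p = 0.00101), with all E18.5 arrays under the filter. The size ranged from 1.10 with 64 added to 3.05 with nothing added. Mdk, the growth factor midkine, read 404 to 804 at E18.5 and 196, 90.3 and 164 at term (-1.85, SE 0.29, adjusted p = 0.00109). Smad7, the feedback inhibitor of TGF-beta signaling, rose by 1.27 (SE 0.20), Tgfb1 by 1.62 (SE 0.38) and Fgfr4, a receptor of alveolar epithelium, by 1.27 (SE 0.31). Fzd4, a Wnt receptor, fell by 0.84 (SE 0.20). The branching signals Shh (-0.47) and Fgfr2 (0.30) were not called. Bmp4 gave -0.77 (adjusted p = 0.0691) on its brighter probe set and 1.62 (adjusted p = 0.00215) on the other, so its direction is not settled here.

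The IGF axis, which drives fetal growth, had 3 of 11 genes lower and 2 higher, but 1 lower without G or H and none higher without F. After quantile normalization 1 was lower and 1 higher. Igf1 read 449, 600, 564, 454 and 349 at E18.5, against 190, 253 and 202 at term (-1.10, SE 0.22, adjusted p = 0.00425). Igf2, an imprinted and very bright gene, fell by 1.03 as deposited (SE 0.29, adjusted p = 0.02, lost without G or H) and its change was -0.52 after quantile normalization (adjusted p = 0.173). Igfbp3, which binds both, rose by 1.38 (SE 0.34, lost without array F). Of 16 imprinted genes 2 rose and 3 fell, but none rose without A or F and none fell without H. Meg3, a maternally expressed noncoding RNA, ranged from 52.0 to 1536 at E18.5 and read 1769, 3389 and 2796 at term. Its change of 2.34 (SE 0.74, adjusted p = 0.0333) was lost without array A, E, F, G or H. Dlk1, from the same imprinted cluster, changed by -0.14 as deposited and by 0.83 after quantile normalization, where it was called higher (adjusted p = 0.00189).

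On the elastic fiber list 4 of 10 genes fell and 1 rose, and with arrays centred on their medians 1 fell. Mfap2, a microfibril protein, read 630 to 940 at E18.5 and 233, 159 and 357 at term (-1.63, SE 0.26, adjusted p = 0.00126). Lox, the oxidase that cross-links elastin and collagen, went the other way, from 184 to 315 at E18.5 to 748, 566 and 587 at term (1.23, SE 0.22, adjusted p = 0.00226). Eln, elastin itself, fell by 0.89 as deposited (SE 0.27, lost without C, F or H), but its sign turned after quantile normalization (0.25, adjusted p = 0.209), and its other probe set gave 0.62 (adjusted p = 0.212). The fall of Fbln1 was lost without A, C, E, G or H and that of Mfap4 without any array but B, and without array C or H 1 of the 4 falls was called.

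Of 35 genes for collagens and other matrix 5 fell and 1 rose, with 8 lower without array B and 3 without C, F or H. The 5 falls were near the share of all tested probe sets called lower, 13.1%, and the 1 rise was under the 13.8% called higher. Col1a2, a chain of type I collagen, fell by 1.14 (SE 0.25), Col6a3 by 0.86 (SE 0.19) and Col18a1, of the basement membrane, by 1.08 (SE 0.25). P4ha1, a collagen prolyl hydroxylase and hypoxia target, rose by 1.28 (SE 0.29). Changes of -0.63 for Col1a1, -0.03 for Col3a1 and -0.26 for Col4a1 (0.02 after quantile normalization) were not called. Of 16 protease and inhibitor genes 4 rose and 1 fell. Plaur, the urokinase receptor, rose by 1.40 (SE 0.25), Reck, a membrane-bound inhibitor of metalloproteinases, by 1.09 (SE 0.22), and Timp3, a matrix-bound inhibitor, by 0.76 (SE 0.19). Pcolce, which helps to trim procollagen, fell by 1.22 (SE 0.22).

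Of 32 vessel genes 4 rose and 1 fell. They were Efnb2, an arterial ephrin (1.56, SE 0.25), Klf2, Sox17 and Cdh5, VE-cadherin (0.73, SE 0.19, lost without array H), which rose, and Gja5, an arterial connexin (-1.39, SE 0.30), which fell. Pecam1 (-0.21), Kdr (0.08), Tie1 (0.10) and Tek (0.19) were not called. The count of vessel genes that rose was near the share over all tested probe sets, 13.8%. The count that fell was under the share called lower, 13.1%. In smooth muscle 1 of 13 genes fell, Actg2, an actin of visceral muscle (-1.35, SE 0.25). Acta2 (-0.79) and Myh11 (-0.84) were not called.

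Of 18 red cell genes 4 fell and none rose, with 7 lower without array B. Alas2, the first enzyme of heme synthesis in red cell precursors, read 811, 634, 1244, 979 and 1653 at E18.5, against 476, 241 and 343 at term (-1.52, SE 0.31, adjusted p = 0.00439). Ank1, the membrane skeleton ankyrin, fell by 1.11 (SE 0.25), with 0.88 (adjusted p = 0.0511) on another probe set. Urod, a heme enzyme, fell by 1.0 (SE 0.24). Hba-a1, alpha globin and the brightest gene of this group, fell by 1.48 as deposited (SE 0.26), with a change of 0.02 and no call after quantile normalization. 

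Leukocyte genes gave small and mixed counts. Of 10 neutrophil genes tested 2 rose and 1 fell, and of 18 macrophage and complement genes 3 rose and 1 fell. The shares over all tested probe sets were 13.8% higher and 13.1% lower. The calprotectin pair S100a8 and S100a9 of neutrophils rose by 0.72 (SE 0.21, lost without C, F or G) and 0.61 (SE 0.21, lost without A, B, C, G or H), and Elane, made by immature neutrophils, fell by 0.94 (SE 0.24, lost without array G). Among macrophage genes Lgmn, a lysosomal protease, rose by 1.42 (SE 0.28), Mpeg1 by 0.95 (SE 0.23, lost without array F) and Cd14 by 0.82 (SE 0.21, lost without array H). Csf1r (-0.01), C1qa (-0.35) and Cd68 (-0.41) were not called. Of 22 genes for interferon response and antigen presentation 3 rose, near the share over all tested probe sets, and 1 fell, with a median of 0.03. H2-K1, a class I antigen-presenting molecule, rose by 0.86 (SE 0.20), and B2m, its partner chain, by 1.01 (SE 0.29, lost without F or H).

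Genes of metabolism and detoxification were called in both directions. Lpl, lipoprotein lipase, read 39.6 to 66.4 at E18.5 and 332, 200 and 217 at term (1.88, SE 0.22, adjusted p = 0.000312). Pon1, a serum esterase, read 67.5 to 166 at E18.5 and 746, 310 and 721 at term (2.06, SE 0.32, adjusted p = 0.00109). Inmt, an indole methyltransferase abundant in lung, rose by 1.63 (SE 0.31) and Fmo1, a flavin monooxygenase, by 1.11 (SE 0.22). Of 39 antioxidant and detoxification genes 5 rose and 5 fell, near the shares over all tested probe sets (13.8% higher, 13.1% lower). Of these genes 1 fell without array F, 2 without G or H and 2 with arrays centred, and 3 rose without A, C or H. Classical oxygen defence genes such as Cat (-0.63), Sod1 (0.004) and Gpx1 (-0.25) were not called.

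Of 58 respiratory chain genes 11 fell and 1 rose, with a median of -0.21. Without array F, G or C 4, 6 or 7 fell, and with arrays centred 5 fell. Ndufb8, a complex I subunit, fell by 1.35 (SE 0.31) and Atp5e, the epsilon subunit of ATP synthase, fell by 1.86 (SE 0.31). Of 23 ribosomal protein genes 11 fell and none rose, but their median of -0.69 became -0.16 after quantile normalization, where 4 fell and 1 rose. Without array F 7 fell. Rpl41, for example, fell by 1.58 as deposited (SE 0.28), with a change of -0.15 and no call after quantile normalization. Of 36 proteasome genes 8 fell and 3 rose. Psmc3, an ATPase of the cap, fell by 1.69 (SE 0.22, with -0.98 and -0.59 on other probe sets) and Psmb2, a core subunit, by 1.57 (SE 0.24), whereas Psme4, an alternative cap, rose by 0.99 (SE 0.20). Between 3 proteasome genes, without array G, and 9, without B, fell when 1 array was left out, and 4 fell with arrays centred.

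Of 30 chaperones and stress response genes 7 rose and 4 fell, and without array G 4 rose and 2 fell. Dnajb9, an endoplasmic reticulum co-chaperone, read 11.3 to 30.4 at E18.5 and 128, 155 and 276 at term (2.34, SE 0.28, adjusted p = 0.000312). Xbp1, a factor of the unfolded protein response, rose by 1.05 (SE 0.20). Hspa1a, the inducible HSP70, read 34.8 to 66.4 at E18.5 and 119, 609 and 193 at term (1.96, SE 0.38, adjusted p = 0.00369), highest on array G. The folding proteins Hsp90b1 and Pdia6 of the endoplasmic reticulum fell by 1.31 (SE 0.25) and 1.55 (SE 0.32).

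Other genes also stood among the 15 largest rises. Arih1, an ubiquitin ligase, rose by 2.60 (SE 0.28) on 1 probe set, with 0.27 (adjusted p = 0.401) on the other. Ccnl2, a cyclin of RNA splicing, rose by 2.42 (SE 0.21), Wsb1, a subunit of an ubiquitin ligase, by 2.37 (SE 0.23), Eif4a2, an RNA helicase of translation initiation, by 2.28 (SE 0.27), Tob1, an antiproliferative gene, by 2.27 (SE 0.33) and Car8 by 2.25 (SE 0.25). Zranb2, a splicing factor, rose by 2.21 (SE 0.22) and, on another probe set, by 0.70. Ccnl2 read 124, 163, 174, 129 and 157 at E18.5, against 696, 966 and 957 at term.

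Among the 15 largest falls, Adh1, an alcohol dehydrogenase that oxidizes retinol, read 2427, 1188, 1917, 1545 and 1697 at E18.5, against 454, 396 and 400 at term (-2.0, SE 0.24, adjusted p = 0.000312). Nrep, a neuronal regeneration-related protein, fell by 1.79 (SE 0.22), Tmsb10, a thymosin that binds actin, by 1.83 (SE 0.31, -1.57 after quantile normalization), Tuba1c, an alpha tubulin, by 1.82 (SE 0.24, -1.67 after quantile normalization), Cdh16, a cadherin first known from kidney, by 1.82 (SE 0.25) and Dctpp1, a nucleotide pyrophosphatase, by 1.88 (SE 0.36). Dnaaf5 (-2.05, SE 0.28), Klhdc4 (-1.75, SE 0.32), Mobp (-1.74, SE 0.29) and Krt20 (-1.72, SE 0.29) also fell, with term signals of 3.6 to 37.3, near the floor, and the other Dnaaf5 probe set gave 0.15 (adjusted p = 0.592). The probe set of Snrp1c-ps2, a pseudogene that shares probes with its relatives, had the largest fall (-2.06, SE 0.41, adjusted p = 0.00412).

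Markers of neighbouring organs were read for tissue carried along in dissection. None of 14 heart muscle genes and none of 8 skeletal muscle genes was called, though without E or H 1 heart gene was higher and without F 1 was lower. An unadjusted p under 0.05 was found for 1 heart gene, Atp2a2, and 2 skeletal muscle genes, Myog and Tnnc2. Myh6, an atrial myosin, read 1959 on array F and 45.8 to 310 on the other null arrays. Alb, Afp, Ttr and Apoa1 of liver were all under the filter on both ages. The 1 gene of the liver list that was tested, Rbp4, the retinol carrier, rose by 1.23 (SE 0.30, lost without F or H).

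Finally the change of the null lung was set against that of T1α(+/+) lungs, which shares no array with it. In wild-type lungs 650 of 6097 tested probe sets were called higher (10.7%) and 492 lower (8.07%), 18.7% in all. That count fell to 335 without array N, to 585 without O and to 182 with Xist as a covariate. The shares of overlap below rest on that count. Xist read lower on every wild-type term array than on any earlier one, so the covariate cannot be fully parted from age there. Of 5841 probe sets tested in both genotypes, 1594 were called in null lungs and 1105 in wild type. In both 857 were called, all in the same direction, which is 53.8% of the null calls and 77.6% of the wild-type calls. Of the null calls 98.6% had the same sign in wild type, and 23 had the opposite sign. The brightest probe sets read lower at term in both genotypes, and the part of this shared shift in the agreement was not tested. The median size of the change over the null calls was 0.93 log2 units in null and 0.91 in wild-type lungs.

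The difference of the changes between the genotypes, fitted on all 16 arrays, called none of 6405 probe sets (0%), with 94 at an unadjusted p under 0.05 (1.47%). A gene called in 1 genotype and not in the other is therefore not shown to differ. The genes of lowest p are given as values. Egr1 rose by 2.07 in wild-type lungs, from 29.0 to 55.7 at E18.5 to 242, 262 and 174 at term, against 0.17 in null lungs (difference -1.91, SE 0.49, adjusted p = 1.0). Ccn1 rose by 3.51 in wild-type and by 2.47 in null lungs, and its null term signals of 145 to 235 all lay below the wild-type ones of 521 to 614. The paper reported that other methods did not bear out the lower CYR61 mRNA of null lungs, and that CYR61 protein was higher in them. Fos rose by 5.03 and 3.41, with term signals of 2239 to 2487 in wild type and 328 to 1637 in null lungs.

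Of 29 immediate early genes with this test, 6 had an unadjusted p under 0.05, namely Egr1, Ccn1, Fos, Ier2, Dusp1 and Socs3, each with the smaller rise in null lungs, and none passed adjustment. The list's median change was 1.84 in wild-type and 1.05 in null lungs. The replication and mitosis lists had medians of -0.84 and -1.33 in wild type, against -0.66 and -0.87 in null lungs, with 24 replication genes tested in each genotype but 32 mitosis genes in wild type and 28 in null. H1f2, a linker histone, rose by 2.92 in wild-type and 1.67 (SE 0.23) in null lungs. Ica1, an islet autoantigen of vesicle traffic, read 227 to 416 at E18.5, against 149, 54.8 and 104 at term in null lungs (-1.64, SE 0.28, adjusted p = 0.00182), with a wild-type change of -0.07. Another Ica1 probe set gave -0.28 (adjusted p = 0.47) in null lungs. Asxl1, a Polycomb-associated protein, rose from 101 to 134 at E18.5 to 175, 217 and 153 at term in null lungs (0.66, SE 0.19, adjusted p = 0.0235, lost without F or G), with a wild-type change of -0.52 (adjusted p = 0.172). Axin1 changed by -0.47 and 0.52, neither called, and Vav1, under the filter in null lungs, changed by -0.47 there and by -1.97 in wild type.

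**Figure D5:**
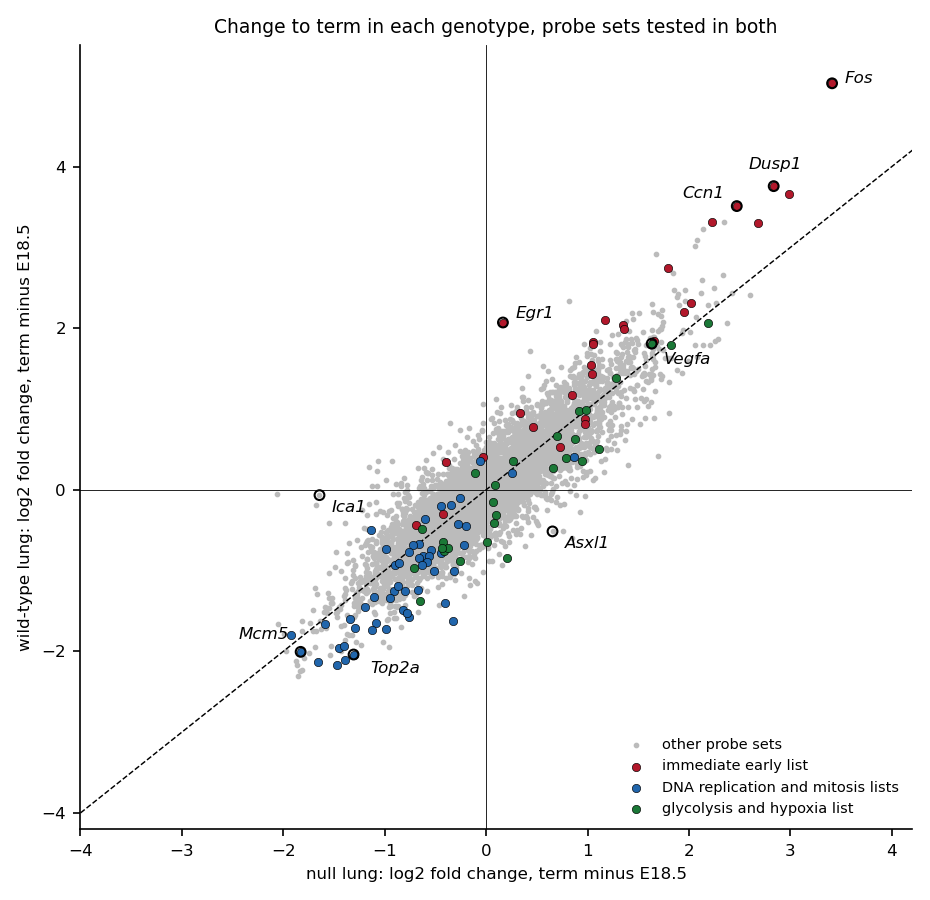
Log2 fold change from E18.5 to term in wild-type lungs (vertical axis) against that in null lungs (horizontal axis) for probe sets tested in both, with the dashed line marking equal change. Immediate early genes (red) lie mostly above the line at the upper right, cell cycle genes (blue) at the lower left, and Egr1, Ica1 and Asxl1 stand off the line, though no probe set passed the adjusted test of the difference.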

How the data were processed

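The deposited intensities were Microarray Suite 5.0 signals on a linear scale, made by the authors from Affymetrix U74Av2 arrays of total lung RNA, 1 lung per array, and scaled so that each array's mean, without its lowest and highest 2%, was about 100. Their number limits the precision, since arrays give no counts. From these, log2(signal + 16) was tested with limma 3.58.1 (R 4.3.3, moderated with an intensity trend, two-sided), on the 8 null arrays, on the 8 wild-type arrays, and on all 16 for the difference. A probe set was tested where the median of a group passed the signal that 45% of values exceed (51.0 in null lungs), after leaving out 66 control probe sets, with Benjamini-Hochberg adjustment over all tested and a threshold of 0.05. Adding 16 understates the change of dim genes. Of 12488 probe sets 10833 had 1 symbol, 396 several and 1193 none, and 10817 were matched by gene ID to the RefSeq table of GRCm38.p6. Probe sets with several symbols were not named.

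The text names Pdpn, the 15 largest rises and 15 largest falls among called probe sets with no overlap between groups, the 8 lowest p in the difference, and members of 39 gene lists. Members and lists were chosen with earlier results of these data known. The scripts were tested on simulated data. Quantile normalization, median centring, other pseudocounts and filters, covariates, array weights, the methods' t-test and leaving out each array were tried as alternatives. A mean over all probe sets of a gene was tried too.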

Additional observations from a re-analysis of the deposited data

Results flagged for a closer look

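In 11 of 212 probe sets examined, 1 of the 5 null lungs at E18.5 stood apart from the other 4, by its gap to the nearest of them as a share of the group's range, both on the log2(signal + 16) scale. Chance gives such a gap in about 1 in 20 groups. For Nr4a1 array A was lowest, at 3.4 against 31.3 to 36.0 (share 0.904). For Junb array B was highest, at 178.5 against 56.7 to 73.2 (0.792). For Asxl1 array D was highest, at 134.1 against 101.3 to 104.3 (0.898). For Ccnb2 array A was highest, at 813.3 against 500.8 to 562.8 (0.76), as it was for Mcm2, at 138.0 against 78.9 to 90.6 (0.76). Array A was lowest for Reck, at 92.3 against 148.8 to 177.6 (0.723).

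Array B was lowest for Scd1, at 306.8 against 809.2 to 901.8 (0.898), for Ddit4, at 57.9 against 197.9 to 313.7 (0.711), and for Cd68, at 51.6 against 97.8 to 121.7 (0.732). For Jag2 array C was highest, at 33.3 against 6.8 to 11.5 (0.757). For Shh array E was lowest, at 206.5 against 274.1 to 294.7 (0.795).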

How the results depend on the processing

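No paired analysis was possible because each array carries a letter of its own, shared with no array of another group. The named genes called in null lungs were 155, not counting Cdkn2b. Of these 84 kept their call under all alternatives counted, 70 lost it under at least 1 and 2 changed sign under at least 1. A mean over all probe sets of a gene was left out of that count. Under it 20 genes were marked as moved and 21 as the same. Sign changes came with quantile normalization, in the called genes Eln (0.245) and Hba-a1 (0.015) and the uncalled Dlk1 (0.83). The methods' t-test called 1032 probe sets in null lungs on signals, 364 of them lower, and on log2 values 532 lower. With arrays centred on the median 517 were lower. Leaving out 1 array gave 893 (without F) to 1769 (without B) calls, 504 to 877 higher and 389 to 892 lower. Without probe sets over a mean signal of 1000, an alternative chosen after seeing the data, 820 were higher and 703 lower of 5882 tested. In wild-type lungs 182 probe sets were called with Xist as a covariate, 1941 with array quality weights, 551 by the methods' t-test on log2 values and 355 on signals, and 335 (without N) to 1269 (without P) when 1 array was left out, with 585 without O. The causes were not tested. No alternative gave a call in the difference between genotypes, where 51 to 273 probe sets had an unadjusted p under 0.05.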
